A study of Mus musculus with 6 samples.

Results

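The genes described here are 10 markers of the liver sinusoidal endothelial cell, namely Stab1, Stab2, Clec4g, Pecam1, Kdr, Lyve1, Tek, Cdh5, Fcgr2b and Oit3. They were taken by symbol from a deposited table of 23631 genes, and all 10 had a row there. RNA sequencing was done on whole liver of male C57BL/6J mice, an inbred laboratory strain, with 3 libraries from mice fasted for 48 h and 3 from mice labelled re-fed. The age of the mice is not given in the labels, and their treatment protocol speaks of normal feeding where the sample labels speak of re-feeding, so the history of the comparison group before its last meal is not known; it is called refed here. No allele or agent other than food is named in the labels.

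Liver sinusoids are lined by a fenestrated endothelium that lacks a continuous basement membrane. Its cells take up waste macromolecules from blood through scavenger and lectin receptors, and they also carry the junction proteins and growth factor receptors found on endothelium in general. Stab1 and Stab2 encode stabilins, large scavenger receptors, and Stab2 and Lyve1 both encode receptors for hyaluronan. Clec4g encodes a C-type lectin, and Fcgr2b encodes the inhibitory Fc gamma receptor, which removes immune complexes in these cells and is also made by B cells and Kupffer cells. Oit3 encodes a secreted zona pellucida domain protein of liver. Pecam1 (CD31) and Cdh5 (VE-cadherin) are adhesion molecules of endothelial contacts, Kdr is the main receptor for VEGF-A, and Tek (Tie2) is the receptor for angiopoietins. Lyve1, Stab1 and Fcgr2b also mark some macrophages, and Lyve1 is used as a marker of lymphatic endothelium.

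Stab1 and Clec4g both encode uptake receptors of the same cell, and their fold changes had opposite signs. Clec4g was not called (edgeR adjusted p = 0.0939), and the difference between the changes was not tested. For this pair the upstream regions are shown. They are the 250 bases before the RefSeq start, read 5′ to 3′ on the gene's minus strand (GRCm38.p6, RefSeq sequences), at chr14:31168642-31168891 for Stab1 and chr8:3720652-3720901 for Clec4g. Capitals mark the letters AGGAAG or their reverse complement CTTCCT, a form of the site bound by ETS factors, a family with many members in endothelium. The shorter core GGAA also occurs unmarked in both sequences.
Stab1: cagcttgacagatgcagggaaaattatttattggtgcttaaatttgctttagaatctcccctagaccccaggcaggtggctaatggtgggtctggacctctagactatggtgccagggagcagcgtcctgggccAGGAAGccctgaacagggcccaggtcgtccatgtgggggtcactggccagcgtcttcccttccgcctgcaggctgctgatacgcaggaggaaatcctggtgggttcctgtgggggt
Clec4g: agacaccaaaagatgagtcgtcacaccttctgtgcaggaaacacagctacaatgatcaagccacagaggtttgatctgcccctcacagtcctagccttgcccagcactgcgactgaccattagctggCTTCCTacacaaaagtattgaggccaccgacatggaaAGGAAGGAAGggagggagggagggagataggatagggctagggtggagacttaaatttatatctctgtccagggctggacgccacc
A promoter window was matched for 6 of the 10 markers (Stab1, Stab2, Clec4g, Kdr, Tek and Fcgr2b). Of these 6 windows, which run on 50 bases past the start, 3 held AGGAAG on either strand (Stab1, Stab2 and Clec4g), against 35.4% of 32851 mouse promoter windows of the same length. The Clec4g window held 3 matches, of which 2 overlap. The letters AGATAA or TTATCT, a form of the site read by GATA factors, were in 1 of the 6 windows (Tek), against 11.2% of all windows. Other forms of the ETS and GATA sites were not counted. These matches describe letters and not bound sites.

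Total counts per library ran from 29574528 to 36026753. Levels are CPM, read counts scaled by library size with edgeR's TMM factors, and the 3-count floor lay between 0.0844 and 0.0946 CPM. Every marker was far above it, with between 111 and 1153 reads per library, and all 10 passed the low-count filter. Fasted replicate 3 stood apart from its group, with a chi-square per gene of 153 and 137 against fasted replicates 1 and 2, which differed from each other by 23.3. Refed libraries differed among themselves by 17.9 to 32.4.

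Fasted livers had more Lyve1, Stab1 and Pecam1 RNA than refed livers, and no marker was called lower. Lyve1 rose 5.86-fold, Stab1 1.70-fold and Pecam1 1.65-fold. By the edgeR quasi-likelihood test, adjusted over 13248 genes, 3 of the 10 markers were called changed, beside 59.4% of all tested genes. Higher calls were 3 of 10, beside 29.2% of all tested genes, so the share of rising markers was near that of the table as a whole. Lower calls were 0 of 10, beside 30.2% of all tested genes. At an unadjusted p under 0.05 there were also 0 lower markers by edgeR, for which no share over all genes is given. At an adjusted p under 0.05 DESeq2 called 1 lower (Clec4g), beside 29.7% of genes, and limma-voom called 0, beside 30.7%. The groups' CPM did not overlap for 2 of the 10 markers, beside 67.2% of all tested genes, and both had fasted above, beside 32.8%; with fasted below there were 0, beside 34.4%. The median log2 fold change of the 10 markers was 0.37, beside 0.0 for all tested genes, with 7 above zero and 3 below. In bulk liver, more or fewer endothelial cells and more or less RNA per cell cannot be told apart.

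**Figure D1:**
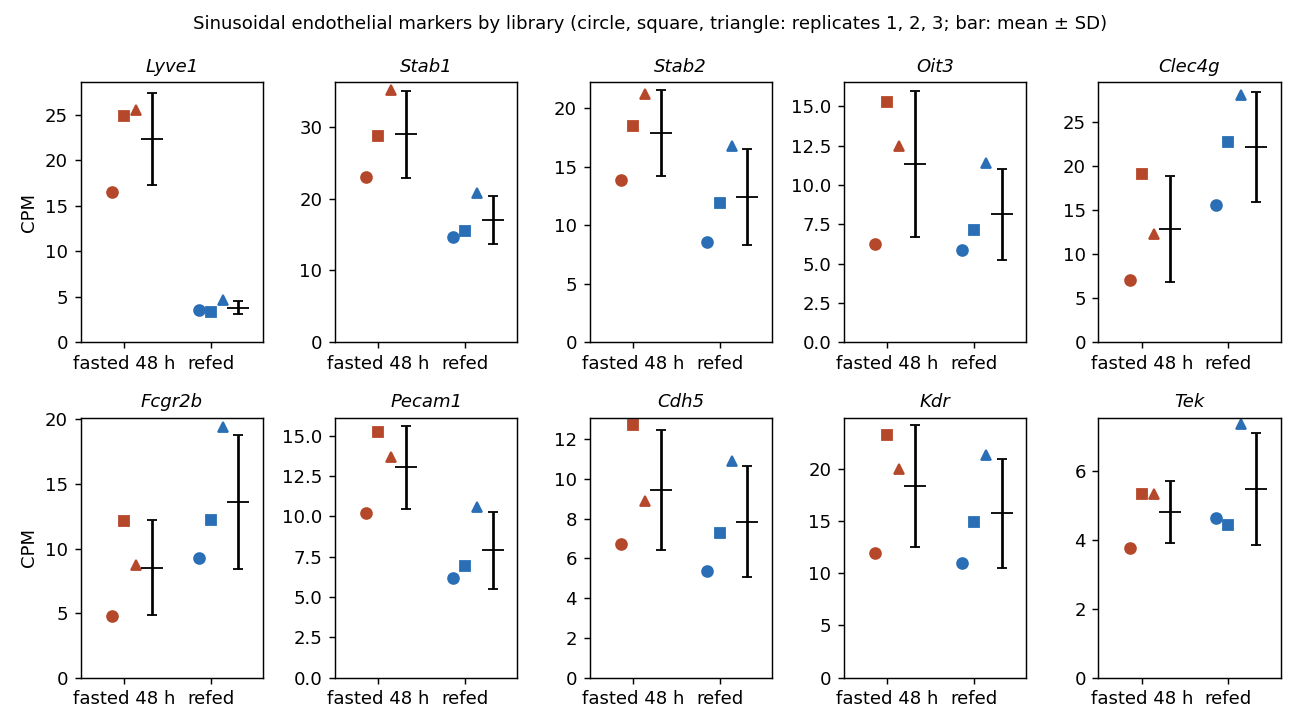
Level of each marker in CPM (linear axis from 0) in every library, fasted left of refed; points are libraries and the bar is the mean ± SD (n = 3). Only Lyve1 and Stab1 have fasted libraries that all lie above the refed ones.

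Lyve1 had the largest fold change of the 10 markers. Lyve1 (ENSMUSG00000030787, chromosome 7 from 117994121 to 118006467, mm9) had 551, 802 and 839 reads in fasted replicates 1 to 3, against 111, 117 and 163 reads in the refed ones. That is 16.5, 24.9 and 25.5 CPM in fasted livers and 3.5, 3.29 and 4.63 CPM in refed livers. Every fasted library lay more than 3 times above every refed one. The log2 fold change was 2.55 (SE 0.22, 95% interval 2.05 to 3.05, edgeR adjusted p = 4.55e-05). It stayed between 2.34 and 2.73 under the 15 alternatives, with the highest adjusted p at 0.000456. In the authors' deposited table its log2 ratio of fasted over refed is 2.47.

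Stab1 (ENSMUSG00000042286, chromosome 14 from 31952199 to 31981827, mm9) had 23.0, 28.7 and 35.1 CPM in fasted livers, against 14.7, 15.5 and 20.8 CPM in refed livers. The lowest fasted library was above the highest refed one, by a small margin. Its log2 fold change was 0.77 (SE 0.19, 95% interval 0.33 to 1.21, edgeR adjusted p = 0.00876), and it was called in all 15 alternatives, at log2 values from 0.56 to 0.93. Stab1 overlaps Nt5dc2 in the deposited coordinates, which had 827 reads over all libraries, and whether the counting used strand is not stated in the labels.

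Its relative Stab2 (ENSMUSG00000035459, chromosome 10 from 86303943 to 86470770, mm9) had 13.9, 18.5 and 21.2 CPM in fasted livers, against 8.61, 11.9 and 16.8 CPM in refed livers. Refed replicate 3 lay above fasted replicate 1, so the groups overlapped. The log2 fold change was 0.52 with a 95% interval of -0.08 to 1.12 (edgeR adjusted p = 0.115), which holds the value of Stab1. Without refed replicate 3 Stab2 was called, at a log2 fold change of 0.79 (edgeR adjusted p = 0.0286). The difference between the stabilins' changes was not tested.

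The lectin, the Fc receptor and Oit3 did not pass. Clec4g (ENSMUSG00000074491, chromosome 8 from 3707064 to 3720651, mm9) had 7.08, 19.1 and 12.3 CPM in fasted livers, against 15.6, 22.7 and 28.1 CPM in refed livers. The gene overlaps Gm16553, which had 12 reads in all. Fasted replicate 2 lay within the refed range and the other fasted libraries below it. The log2 fold change was -0.79 (SE 0.36, 95% interval -1.63 to 0.05, edgeR adjusted p = 0.0939). The value is close to the threshold. Without fasted replicate 2 it was -1.19 and called (edgeR adjusted p = 0.0205), and DESeq2 called it too (adjusted p = 0.0426; range over all alternatives 0.0147 to 0.264).

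Fcgr2b had 4.74, 12.1 and 8.74 CPM in fasted livers, against 9.3, 12.2 and 19.4 CPM in refed livers. Its groups overlapped through fasted replicate 2, as for Clec4g, and the log2 fold change was -0.68 with a 95% interval of -1.56 to 0.20 (edgeR adjusted p = 0.156). Oit3 had 6.24, 15.3 and 12.5 CPM in fasted livers, against 5.87, 7.12 and 11.4 CPM in refed livers. Its log2 fold change was 0.48, with a wide 95% interval of -0.36 to 1.33 (edgeR adjusted p = 0.281).

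The junction proteins gave unequal calls. Pecam1 (ENSMUSG00000020717, chromosome 11 from 106515531 to 106611942, mm9) had 10.2, 15.2 and 13.7 CPM in fasted livers, against 6.18, 6.89 and 10.6 CPM in refed livers. Refed replicate 3 lay just above fasted replicate 1. The log2 fold change was 0.72 (SE 0.24, 95% interval 0.18 to 1.27, edgeR adjusted p = 0.0287). The call was lost without refed replicate 1 (edgeR adjusted p = 0.0952), refed replicate 2 (0.102) or fasted replicate 2 (0.0882), without replicate 1 of both groups (0.0505), and when libraries were scaled by their totals (0.0972), where the log2 fold change was 0.51; it held in 10 of 15 alternatives. That scaling moves the median of all genes to -0.21, and every fold change here is relative to the median gene; under it 2 of 10 markers were called higher, beside 21.7% of tested genes, and 1 lower (Clec4g), beside 38.3%. Cdh5 had 6.75, 12.7 and 8.89 CPM in fasted livers, against 5.39, 7.26 and 10.9 CPM in refed livers, with a 95% interval of -0.45 to 0.99 around a log2 fold change of 0.27 (edgeR adjusted p = 0.482).

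The growth factor receptors differed by less than the spread between libraries. Kdr had 11.9, 23.2 and 20.0 CPM in fasted livers, against 11.01, 14.9 and 21.3 CPM in refed livers (log2 fold change 0.22, 95% interval -0.48 to 0.93, edgeR adjusted p = 0.549). Tek had 3.78, 5.34 and 5.33 CPM in fasted livers, against 4.64, 4.45 and 7.38 CPM in refed livers (log2 fold change -0.19, 95% interval -0.75 to 0.37, edgeR adjusted p = 0.526). The sign of the Tek value turned without refed replicate 3, where it was 0.07.

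**Figure D2:**
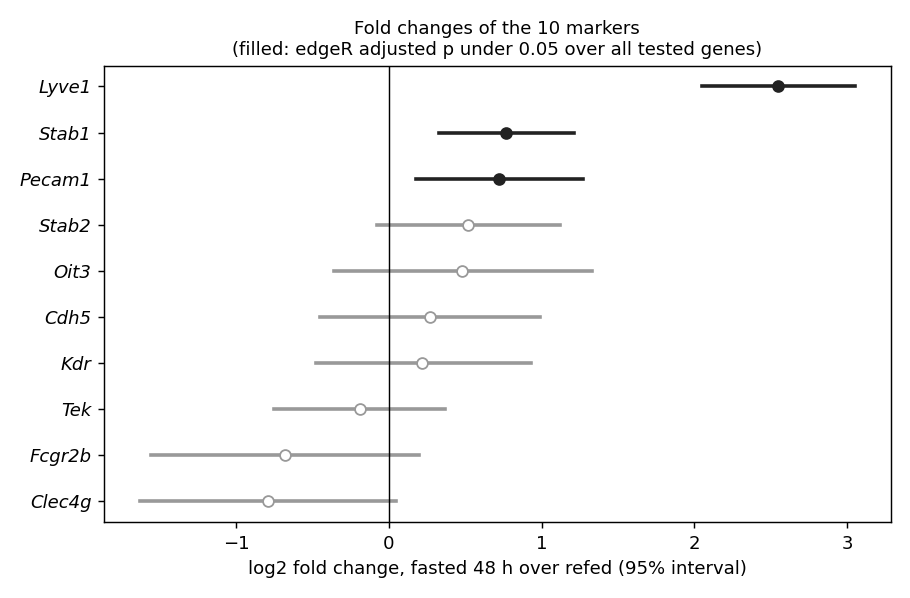
Log2 fold change of fasted over refed with its 95% interval for each marker (n = 3 libraries a group); filled points passed edgeR's adjusted threshold of 0.05. Lyve1 at 2.55 stands to the right of the other intervals, the highest of which ends at 1.33.

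Levels of different markers can be set side by side only per length. The authors' signal per kb divides the stabilins by a short length: the deposited columns give 1.24 kb for Stab1 and 0.72 kb for Stab2, while their longest coding transcripts in GENCODE M21 are 8.0 and 8.23 kb long. The levels here are therefore CPM per kb of the longest coding transcript. On this scale Clec4g stood first in both groups, at 8.89 ± 4.18 in fasted livers and 15.4 ± 4.34 in refed livers (SD, n = 3). Lyve1 stood 2nd in fasted livers, at 7.72 ± 1.74, and 9th in refed livers, at 1.32 ± 0.248 (SD, n = 3). Tek stood 10th in both, at 1.03 ± 0.193 in fasted and 1.18 ± 0.353 in refed livers (SD, n = 3).

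In fasted livers the order was Clec4g, Lyve1, Oit3, Pecam1, Stab1, Kdr, Fcgr2b, Cdh5, Stab2 and Tek, and neighbours overlapped in range except Lyve1 with Oit3 and Stab2 with Tek. In refed livers the order was Clec4g, Fcgr2b, Oit3, Kdr, Pecam1, Stab1, Cdh5, Stab2, Lyve1 and Tek, and only Clec4g stood clear of its neighbour. The middle of both orders is thus not resolved by 3 libraries. By the authors' signal per kb, Stab2 would stand 1st in fasted livers, against 9th here.

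Within a group the markers went up and down together. Fasted replicate 1 was the lowest fasted library for 10 of 10 markers, beside 31.2% of all tested genes. Refed replicate 3 was the highest refed library for 10 of 10, beside 38.7% of all tested genes, and refed replicate 1 the lowest for 8 of 10, beside 35.7%. The highest library exceeded the lowest by 1.41-fold (Tek) to 2.7-fold (Clec4g) among fasted livers and by 1.41-fold (Lyve1 and Stab1) to 2.08-fold (Fcgr2b) among refed livers. The markers' summed level was 104, 175 and 163 CPM in fasted replicates 1 to 3, and 84.8, 106 and 151 CPM in the refed ones.

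**Figure D3:**
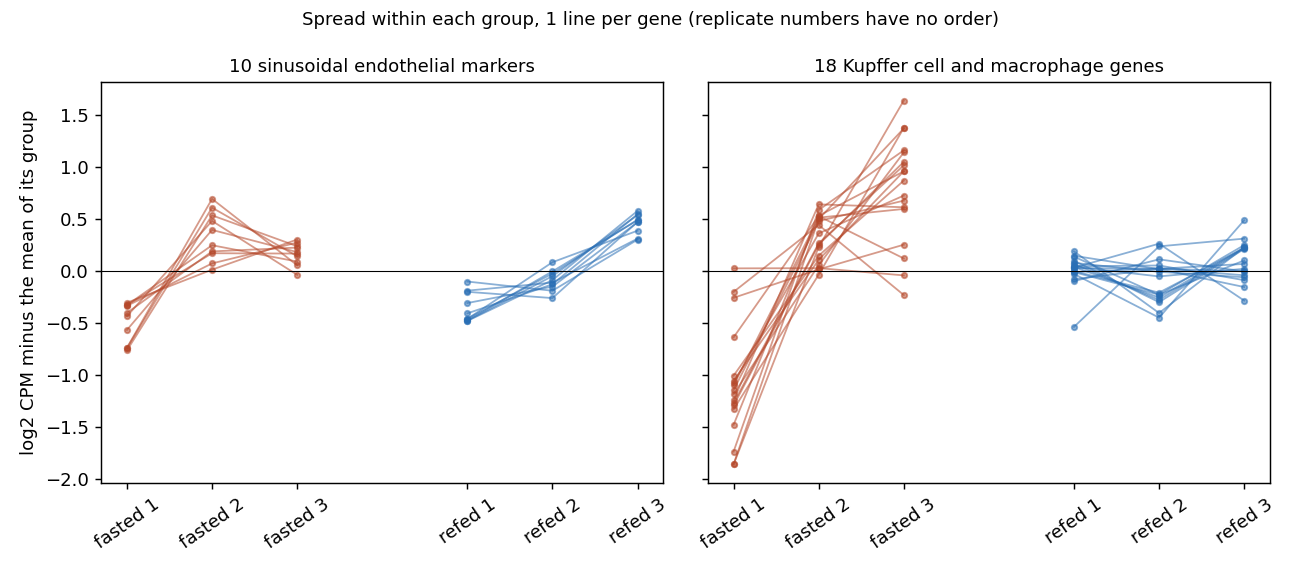
Log2 CPM minus the mean of its own group for each gene (1 line per gene, joined across libraries only to follow a gene), fasted left of refed, for the 10 markers and for 18 Kupffer cell and macrophage genes. All 10 markers are lowest in fasted replicate 1 and highest in refed replicate 3.

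Wider lists of endothelial genes shared this pattern to unequal degrees. Some markers are counted in them again: Tek among the pan-endothelial genes, Pecam1 and Cdh5 among the junction genes, and Kdr and Tek among the VEGF and angiopoietin genes. Fasted replicate 1 was the lowest fasted library in 22 of 29 pan-endothelial genes and 19 of 24 further sinusoidal genes, but in 7 of 16 central vein and portal genes, 10 of 20 junction genes and 10 of 27 VEGF and angiopoietin genes. Refed replicate 3 was the highest refed library in 24 of 29, 18 of 24, 12 of 16, 12 of 20 and 15 of 27 of the same lists. Of 30 pan-endothelial genes, 28 were detected in every library, passed the filter and are no members. Their geometric mean was 2.2, 3.29 and 2.92 CPM in fasted replicates 1 to 3, against 2.43, 3.0 and 3.82 CPM in refed replicates 1 to 3. The groups overlapped in this mean of general endothelial RNA. Each marker was therefore also expressed as the log2 of its CPM over this mean in the same library, as a description; no test was run on these ratios.

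On that scale 7 of 10 markers had groups that did not overlap, beside 46.2% of all genes on the same scale. In CPM it was 2 of 10 markers, beside 67.2% of all tested genes. Division by an endothelial mean removes scatter that endothelial genes share and adds it to other genes. Both shares thus depend on the divisor, and no excess of the markers is read from them. Lyve1 was at 2.91, 2.92 and 3.13 in fasted livers, against 0.53, 0.13 and 0.28 in refed livers. Pecam1 was at 2.22, 2.21 and 2.23 in fasted livers, against 1.35, 1.2 and 1.47 in refed livers. Stab1 and Stab2 also lay wholly above in fasted livers, by a mean difference of 0.90 and 0.69 log2 units, and so did Cdh5, by 0.41.

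Clec4g and Fcgr2b lay wholly below on the same scale. Clec4g was at 1.69, 2.54 and 2.07 in fasted livers, against 2.68, 2.92 and 2.88 in refed livers. Fcgr2b was at 1.11, 1.88 and 1.58 in fasted livers, against 1.94, 2.03 and 2.34 in refed livers. Kdr, Oit3 and Tek overlapped between groups, and Tek differed by -0.04. Fully separate groups with fasted above were found for 5 of 10 markers, beside 25.7% of all genes, and with fasted below for 2 of 10, beside 20.5%. These shares depend on the divisor in the same way.

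**Figure D4:**
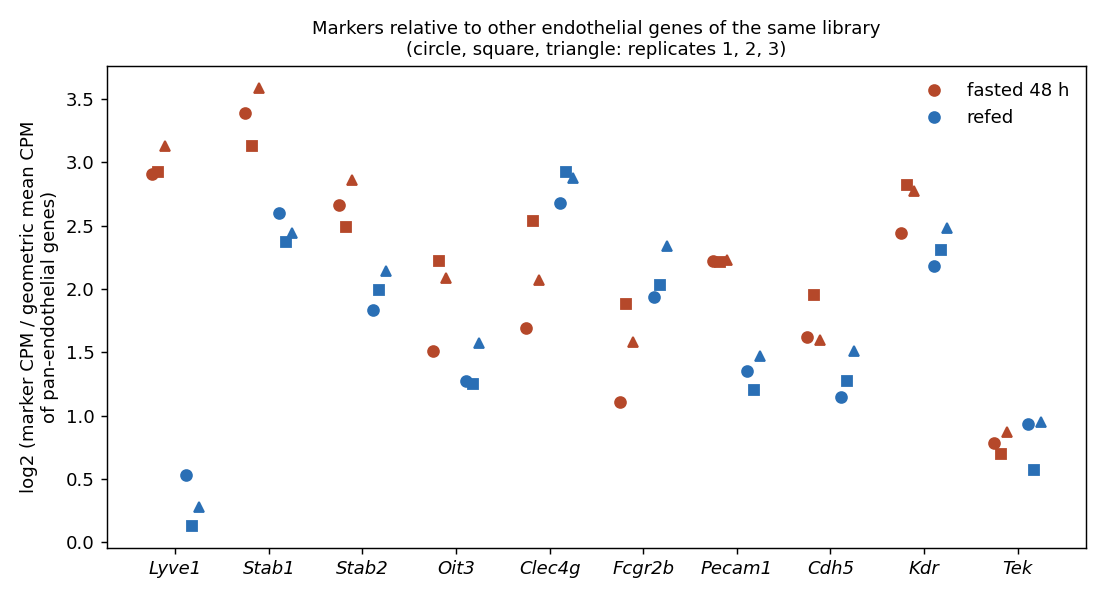
Log2 of each marker's CPM over the geometric mean CPM of 28 other endothelial genes in the same library; colours are groups, with fasted left of refed, and shapes are replicate numbers. Fasted minus refed is 2.67 log2 units for Lyve1, 0.90 for Stab1 and 0.88 for Pecam1, against -0.73 for Clec4g and -0.58 for Fcgr2b.

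Over all tested genes 29.2% rose and 30.2% fell, to be set beside the main counts of every list from here on. Counts with 1 library left out have other shares beside them, 23.2% to 31.6% of tested genes higher and 25.1% to 32.7% lower. With library totals the shares were 21.7% higher and 38.3% lower. A shift in a list's count is thus partly one of the whole table. The pan-endothelial genes were themselves divided, which bears on any value relative to them. Of 29 tested, Tek included, 5 rose (Robo4, Gpr116, Cd93, Esam and Eng), 4 fell (S1pr1, Sox18, Myct1 and Arhgef15) and 20 did not pass, with a median log2 fold change of -0.02. The number that rose was 3 without refed replicate 1 and 3 without fasted replicate 2. Robo4, a guidance receptor of endothelium, rose to 14.5 ± 3.39 CPM in fasted livers, against 3.49 ± 0.939 CPM in refed livers (SD, n = 3; log2 fold change 2.05, edgeR adjusted p = 0.000211). S1pr1, a sphingosine-1-phosphate receptor, fell to 9.62 ± 4.52 CPM in fasted livers, against 69.7 ± 3.72 CPM in refed livers (SD, n = 3; log2 fold change -2.86, edgeR adjusted p = 0.000203).

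Further genes of the sinusoidal endothelium also moved both ways. Of 24 tested, 4 rose (Ctsl, Adam23, Clec1b and Bmp2), beside 29.2% of all tested genes, and 3 fell (Meis1, Fam167b and Gpr182), beside 30.2%. The other 17 did not pass, and the median log2 fold change was 0.05. Without fasted replicate 2, 5 fell. Ctsl, the lysosomal protease cathepsin L, rose to 4766 ± 1150 CPM in fasted livers, against 369 ± 12.4 CPM in refed livers (SD, n = 3; edgeR adjusted p = 8.94e-06); hepatocytes also express it. Meis1, a homeobox factor, fell to 0.933 ± 0.191 CPM in fasted livers, against 3.40 ± 0.90 CPM in refed livers (SD, n = 3; edgeR adjusted p = 0.00069), and overlaps Gm16141 and Gm16140. Gpr182, an endothelial chemokine-binding receptor, had 2.76, 5.40 and 6.30 CPM in fasted livers, against 8.14, 9.15 and 13.5 CPM in refed livers (log2 fold change -1.09, edgeR adjusted p = 0.0204). Dnase1l3, a secreted nuclease of these cells, had a log2 fold change of -0.68 and did not pass (edgeR adjusted p = 0.132).

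The wider set of scavenger and endocytic receptors includes the markers Stab1, Stab2, Clec4g, Fcgr2b and Lyve1, so it is no separate comparison. In it 7 of 21 tested rose, Lyve1 and Stab1 among them, 3 fell (Colec12 and Lrp1 among them) and 11 did not pass. The median log2 fold change was 0.19. When libraries were scaled by their totals, 5 rose and 5 fell. Ager, the receptor for advanced glycation end products, rose to 0.742 ± 0.102 CPM in fasted livers, against 0.108 ± 0.0214 CPM in refed livers (SD, n = 3; edgeR adjusted p = 0.000331). Its refed values, 0.126, 0.0844 and 0.114 CPM, lay at or near the 3-count floor. Cd36, a fatty acid and scavenger receptor that hepatocytes also make, rose to 72.3, 63.9 and 54.4 CPM in fasted livers, against 19.2, 25.6 and 38.0 CPM in refed livers (edgeR adjusted p = 0.00372). Colec12, a scavenger receptor with a collagen-like stalk, fell to 21.2 ± 2.36 CPM in fasted livers, against 56.4 ± 5.05 CPM in refed livers (SD, n = 3; edgeR adjusted p = 5.22e-05), and overlaps Gm17430 and a U6 gene. The mannose receptor Mrc1, which sinusoidal endothelium and macrophages share, had a log2 fold change of 0.19 and did not pass.

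Junction and adhesion genes rose in 8 of 20 tested members, Pecam1 included, fell in 2 (Ctnnb1 and Ctnnd1) and did not pass in 10, with a median log2 fold change of 0.57. The number that rose was 4, 3 and 5 without refed replicates 1, 2 and 3, beside 24.5%, 23.2% and 24.9% of all genes tested there. With library totals it was 4, beside 21.7%. Esam, an adhesion molecule of endothelial tight junctions, had 5.70, 11.6 and 7.19 CPM in fasted livers, against 3.37, 4.92 and 4.34 CPM in refed livers (log2 fold change 0.95, edgeR adjusted p = 0.0187). Jup, or plakoglobin, rose 2.86-fold and Ctnnb1, or beta-catenin, which overlaps Ulk4, fell with a log2 fold change of -1.44. Both are made by many liver cell types, so their values do not single out endothelium.

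The VEGF and angiopoietin genes, which include Kdr and Tek, gave 7 of 27 tested that rose (Foxo1, Hes1, Klf4, Notch1, Flt1, Akt1 and Klf2), 3 that fell (Vegfb, Nrp1 and Angpt2) and 17 that did not pass. Their median log2 fold change was 0.30. The ligand Vegfb fell to 2.21 ± 0.115 CPM in fasted livers, against 9.52 ± 3.41 CPM in refed livers (SD, n = 3; log2 fold change -2.11, edgeR adjusted p = 0.000255). Vegfa, the ligand of Kdr, had 117, 111 and 142 CPM in fasted livers, against 108, 96.2 and 95.6 CPM in refed livers (edgeR adjusted p = 0.0769, not passed). Nrp1, a co-receptor for VEGF, fell to 32.9 ± 5.83 CPM in fasted livers, against 118 ± 30.5 CPM in refed livers (SD, n = 3; edgeR adjusted p = 0.000275). Flt1, the other VEGF-A receptor of endothelium, rose to 9.12, 14.4 and 8.16 CPM in fasted livers, against 4.04, 4.62 and 6.56 CPM in refed livers (log2 fold change 1.06, edgeR adjusted p = 0.0097). Angpt2, an antagonistic ligand of Tek, fell by 1.41 on the log2 scale (edgeR adjusted p = 0.016) at levels below 1.3 CPM.

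Angiocrine ligands, by which endothelium acts on hepatocytes, rose in 5 of 18 tested members (Dll1, Bmp6, Rspo3, Bmp2 and Edn1), fell in 6 (Wnt9b, Cxcl12, Igf1, Gas6, Angpt2 and Bmp4) and did not pass in 7, with a median log2 fold change of 0.20. The number that rose was 2 without refed replicate 1 or refed replicate 2, 3 without fasted replicate 2 or fasted replicate 3, and 2 with library totals. Bmp2 and Bmp6, endothelial signals that raise hepcidin in hepatocytes, rose with log2 fold changes of 0.97 (edgeR adjusted p = 0.0294) and 1.12 (0.00715). Wnt9b, a Wnt ligand of central vein endothelium, fell to 0.18, 0.311 and 0.244 CPM in fasted livers, against 0.978, 0.929 and 1.33 CPM in refed livers (edgeR adjusted p = 0.00088). Dll1, a Notch ligand, rose 2.94-fold (edgeR adjusted p = 0.00037) and overlaps A930024N18Rik. Wnt2, a Wnt ligand of sinusoidal endothelium, had a log2 fold change of -0.36 and did not pass. Igf1 had a mean of 355 CPM in fasted livers, against 620 CPM in refed livers. Bulk liver does not show which cells made the RNA of Igf1 or of the other ligands, so their values do not single out endothelium.

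Endothelium of the larger liver vessels gave 3 of 16 tested that rose (Gja4, Rspo3 and Plvap), 3 that fell (Gja5, Wnt9b and Ephb4) and 10 that did not pass, with a median log2 fold change of 0.20. Without refed replicate 1 or refed replicate 2, or with library totals, 1 rose. The connexins went opposite ways, with Gja4 at 9.42, 18.3 and 12.2 CPM in fasted livers and 2.74, 2.93 and 4.03 CPM in refed livers. Gja5 had 0.15, 0.124 and 0.0914 CPM in fasted livers and 0.883, 1.07 and 1.11 CPM in refed livers (edgeR adjusted p = 0.000166), and overlaps Gpr89 among others. The fasted Gja5 values lay at or near the 3-count floor. Vwf, the von Willebrand factor of large vessel endothelium, had a log2 fold change of 0.32 and did not pass.

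Because Lyve1 also marks lymphatic vessels, their other markers were read beside it. Of 7 tested lymphatic genes, 1 rose (Lyve1 itself), 1 fell (Sox18) and 5 did not pass, with a median log2 fold change of 0.12. Flt4, the receptor for VEGF-C, had a log2 fold change of 0.68 and did not pass (edgeR adjusted p = 0.0736). Without refed replicate 3 or fasted replicate 1 the count that rose was 2, and without refed replicate 1 the count that fell was 2. Podoplanin (Pdpn), which defines lymphatic endothelium, stayed between 0.244 and 0.390 CPM in fasted livers and between 0.281 and 0.631 CPM in refed livers. Nts and Foxc2 were at or under the 3-count floor in all fasted libraries and, except for Foxc2 in refed replicate 2, in all refed ones. The list's summed level, of which Prox1, a factor that hepatocytes also express, gave 52.2 to 77.8 CPM in fasted and 62.7 to 142 CPM in refed livers, ran from 119 to 127 CPM in fasted and from 92.9 to 181 CPM in refed livers. Sox18 fell to 0.15, 0.311 and 0.122 CPM in fasted livers, against 1.23, 1.55 and 1.45 CPM in refed livers (edgeR adjusted p = 0.000353), with its lowest fasted values near the 3-count floor.

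Kupffer cell and macrophage genes were read for the same reason, since Fcgr2b, Stab1 and Lyve1 can come from macrophages. Of 18 tested, 0 rose by edgeR (2 at an unadjusted p under 0.05, 1 by DESeq2 and 0 by limma-voom), 3 fell (Slc40a1, Emr1 and Folr2) and 15 did not pass, with a median log2 fold change of -0.40. Without fasted replicate 1, 3 rose; without fasted replicate 3, 6 fell; and without refed replicate 3, 1 fell. The Kupffer cell lectin Clec4f had 6.57, 20.3 and 23.2 CPM in fasted livers, against 27.4, 21.2 and 26.7 CPM in refed livers. The list's summed level was 140, 212 and 275 CPM in fasted replicates 1 to 3, against 339, 343 and 324 CPM in the refed ones. The separation of these sums rests on Slc40a1, the iron exporter ferroportin, and without it they were 128, 197 and 258 CPM in fasted livers, against 236, 221 and 241 CPM in refed livers, and overlapped. Fasted replicate 1 was the lowest fasted library in 16 of the 18 genes. Fasted replicate 1 was thus low in both the endothelial markers and the macrophage genes; the part of macrophages in the values of Fcgr2b, Stab1 and Lyve1 was not tested. Folr2, which marks resident macrophages that can carry Lyve1, fell to 0.27, 1.09 and 1.46 CPM in fasted livers, against 2.49, 2.50 and 2.27 CPM in refed livers (edgeR adjusted p = 0.0375).

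Markers of other cells were read as summed levels. Fasted replicate 1 was the lowest fasted library in 4 of 4 tested neutrophil and monocyte genes and 8 of 15 hepatocyte genes. It was so in 2 of 3 lymphocyte, 1 of 5 erythroid and 0 of 8 cholangiocyte genes. Refed replicate 3 was the highest refed library in 0 of 4, 3 of 15, 1 of 3, 1 of 5 and 2 of 8 of the same lists. Of 18 lymphocyte genes, 15 were below the low-count filter, and of the 3 tested 1 rose (Cd79b) and 1 fell (Cd4). All 18 together summed to 2.34 to 5.12 CPM in fasted and 5.58 to 7.71 CPM in refed livers. The gap between these sums depends on Cd4, which gave 0.09 to 0.274 CPM in fasted and 1.79 to 2.25 CPM in refed livers. Neutrophil and monocyte genes summed to 1.5, 3.04 and 197 CPM in fasted replicates 1 to 3, against 2.3, 1.49 and 1.36 CPM in the refed ones; the 197 CPM belong to fasted replicate 3, without which Lyve1, Stab1 and Pecam1 were still called by edgeR (Pecam1 at an adjusted p of 0.0489). Erythroid genes summed to 98.5 to 167 CPM in fasted and 180 to 226 CPM in refed livers. That gap rests on Alas2, the haem synthesis enzyme of erythroid cells, which overlaps Apex2, and without it the sums were 116, 79.6 and 145 CPM in fasted replicates 1 to 3, against 90.3, 103 and 71.8 CPM in the refed ones. Cholangiocyte genes summed to 112 to 145 CPM in fasted and 102 to 158 CPM in refed livers. Hepatocyte genes, led by albumin, summed to 154000 to 179000 CPM in fasted and 126000 to 141000 CPM in refed livers, and the tissue label thus held in every library. Of 15 tested, 5 rose, beside 29.2% of all tested genes, 4 fell, beside 30.2%, and 6 did not pass. Their median log2 fold change was 0.03, and albumin did not pass (edgeR adjusted p = 0.795). The gap between the sums depends on Cps1, which gave 15100 to 25800 CPM in fasted and 4180 to 5260 CPM in refed livers.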

How the data were processed

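Liver RNA of 6 libraries (3 fasted, 3 refed) was analysed from 1 deposited table. The deposited columns, per the file headers, hold read counts of each gene, a normalized signal (the count over a size factor of its library), the same signal per kb, and the authors' own log2 fold change, p-value and adjusted p-value. Tests here used the counts. Build mm9 and, with no role stated, DESeq2 1.0.19, HTSeq 0.5.4p3, TopHat2 2.0.10 and Bowtie2 2.1.0 come from the submitters' processing notes. The labels state no strand setting, annotation or filter.

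Counts were fitted with edgeR 4.0.16 in R 4.3.3 (filterByExpr with a minimum count of 10, TMM, robust glmQLFit and glmQLFTest, group only). Of 23631 genes, 13248 were tested. P-values were Benjamini-Hochberg adjusted over these, with a threshold of 0.05; SE is the log2 fold change over the square root of F. The fit was tested on simulated data. The labels do not say how samples came from animals, so a p-value here measures the spread among 6 samples alone, and that spread may be technical. No pair of libraries agreed within sampling noise. Alternatives were DESeq2 1.42.0, limma-voom (limma 3.58.1), other scaling and filters (among them a mean of 5 CPM), a replicate block, and libraries left out.

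Members and lists were chosen with earlier results of these data known. Named genes were all 10 members, the 2 list genes of lowest p in each list with the called gene of lowest p that went against most called genes of its list, and the 3 genes of closest profile. The rule was not followed in full for lymphocyte, neutrophil and monocyte, erythroid, cholangiocyte and hepatocyte genes, which were read as summed levels. Other names were chosen after their values were seen. Plpp3 and Adgre1 were read under their older symbols Ppap2b and Emr1, and Ccl21a, Tf and Ahsp are not analysed here. Some genes of the lists are not reported by name. Promoter and transcript sequences are of GRCm38, and no coordinates were mixed with mm9.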

Additional observations from a re-analysis of the deposited data

How the results depend on the processing

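Of the 10 markers' log2 fold changes, the sign turned in 1 setting, for Tek without refed replicate 3 (0.07); with 1 library left out it ran from -0.33 to 0.07. The number of markers called higher was 3, and 2 to 4 under the alternatives. The number called lower was 0, and became 1 with DESeq2 (Clec4g), 1 with library totals (Clec4g) and 2 with the replicate block (Clec4g and Fcgr2b); with 1 library left out it ran from 0 to 1. The total of changed genes was 7866, and 5672 to 8712 under the alternatives, among them an added one, chosen after seeing the data, that leaves out replicate 1 of both groups. The cause of these shifts was not tested.

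The labels do not pair samples by number. Deviations from the group means correlated at -0.016, -0.062 and -0.081 (Pearson, 13248 genes) for the same-numbered pairs, no sample correlated best with its own number, and the numbers were not taken as pairs. With the replicate block 7340 genes were called (26.9% higher and 28.5% lower); 4 markers rose (Stab2 besides Lyve1, Stab1 and Pecam1) and 2 fell, which says nothing of the size of an effect, and 5 scavenger and endocytic receptors fell in place of 3. Depth did not limit detection of any marker, whereas 3 libraries a group left 95% intervals of more than 1 log2 unit for most of them.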

Other observations

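The genes whose profile over the 6 libraries lay closest to the markers' median profile were Ptprb, Spata2l and Aqp1, among tested genes of at least 5 CPM, with root mean square differences of 0.107, 0.122 and 0.124 log2 units. Ptprb, the vascular endothelial protein tyrosine phosphatase, had 25.9, 47.1 and 35.2 CPM in fasted livers, against 20.9, 26.8 and 41.1 CPM in refed livers. Aqp1, a water channel of endothelium and bile ducts, had 35.7, 64.5 and 47.9 CPM in fasted livers, against 28.3, 34.2 and 49.3 CPM in refed livers. These genes were selected for their likeness to the markers over the same libraries, so the likeness is no separate result. Spata2l had 18.7, 33.3 and 29.3 CPM in fasted livers, against 16.5, 16.4 and 30.2 CPM in refed livers, and overlaps Cdk10 and 4933417D19Rik.

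Stellate cells and fibroblasts, the neighbours of the sinusoidal endothelium, gave 3 of 17 tested genes that rose (Pdgfra, Dcn and Ecm1), 2 that fell (Col3a1 and Lrat) and 12 that did not pass, with a median log2 fold change of 0.09. Pdgfra, a PDGF receptor of fibroblasts, rose to 12.7, 11.2 and 12.1 CPM in fasted livers, against 3.37, 2.90 and 3.35 CPM in refed livers (edgeR adjusted p = 2.56e-05). Col3a1, a fibrillar collagen, fell to 1.92, 1.37 and 3.32 CPM in fasted livers, against 10.1, 14.7 and 11.2 CPM in refed livers (edgeR adjusted p = 0.000426). Lrat, which makes retinyl esters in stellate cells, fell to 2.40, 2.79 and 4.81 CPM in fasted livers, against 8.70, 12.7 and 12.1 CPM in refed livers (edgeR adjusted p = 0.0011). Fasted replicate 1 was the lowest fasted library in 8 of these 17 genes and in 10 of 10 markers, and refed replicate 1 was the lowest refed library in 12 of the 17 and in 8 of 10 markers.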
